A study of Mus musculus with 2 samples.

Results

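The genes described here encode amino acid and monocarboxylate transporters. They are the protein-coding mouse genes whose symbols place them in 7 solute carrier families: Slc1, Slc3, Slc6, Slc7, Slc16, Slc38 and Slc43. The symbol rule took 74 of 21938 protein-coding genes of GENCODE M21 (mm10), counted on the assembled nuclear chromosomes. One of the 74, Slc7a6os, is not a transporter. It was taken for its symbol, which records its place beside Slc7a6. H3K79me2 was mapped by ChIP-seq in macrophages grown from bone marrow (C57BL/6J) and left without stimulation. There were 2 biological replicates, which form 1 group. The sex was not collected and no age was recorded. Each library was made from 10 ng of DNA, with a fragment size range of 350 to 480 in the labels. Both replicates carry the same donor identifier, and no label says whether they came from separate animals or cultures, so the spread between them may be technical.

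Amino acid transporters of the plasma membrane take up glutamine, leucine, arginine, cystine and other substrates that macrophages use for protein synthesis, for nitric oxide or polyamine production and for glutathione. Several are heteromers, in which a heavy chain of the Slc3 family carries a light chain of the Slc7 family to the cell surface. The monocarboxylate transporters of the Slc16 family move lactate with a proton and are needed by glycolytic cells to export it. H3K79me2 is placed by Dot1l on nucleosomes of transcribed genes, mostly in the part of the gene that follows the 5′ end. In bulk chromatin a weak or missing peak cannot tell fewer cells with the modification from less of it in each cell.

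The data are 4 lists of peaks. They hold no read counts, and library depth is unknown. The list called replicated, which the authors derived from both replicates, is the main one. Replicate 1 and replicate 2 each have a list of their own. The list named pooled here is labelled pseudoreplicated and was made from both replicates. Replicate 2's list covered 114 Mb and replicate 1's 63.5 Mb, so more bases in replicate 2 are the rule across the genome. Marked genes are those with 200 bp or more of the first 3 kb under the replicated list, counted from the outermost annotated 5′ end. An unmarked gene may still carry H3K79me2 below the level at which a peak is called. The cells carried the markers of their label: 7 of 8 macrophage genes were marked (30.3% of all coding genes were), and Csf1r was covered at another annotated 5′ end. None of 3 marker genes each for T cells, B cells, neutrophils, fibroblasts and neurons had a base under the replicated list. In replicate 2's list 1 of these 15, Cd4, had 589 bp.

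H3K79me2 marked 18 of the 74 genes (24.3%), beside 30.3% of all coding genes. The 18 were Slc1a5; Slc3a2; Slc6a6 and Slc6a8; Slc7a1, Slc7a5, Slc7a6os and Slc7a8; Slc16a3, Slc16a6 and Slc16a10; Slc38a1, Slc38a2, Slc38a6, Slc38a7, Slc38a9 and Slc38a10; and Slc43a2. Slc7a7 was marked at another annotated 5′ end only, as were 2.56% of all coding genes. Slc16a1, Slc16a4 and Slc16a7 had covered bases further into the gene and no marked 5′ end. In all, 22 of 74 genes had at least 1 covered base, beside 34.1% of coding genes. Slc7a6, Slc16a13 and Slc43a3 were covered in another list but not in the replicated one. The remaining 49 genes had no base under any of the 4 lists (66.2%, beside 60.1% of all coding genes).

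The families differed in these counts. In the Slc38 family of neutral amino acid transporters 6 of 11 genes were marked (54.5%). In Slc6, which holds the transporters of neurotransmitters, creatine and taurine, 2 of 21 were marked (9.52%). Slc1 had 1 of 7, Slc3 1 of 2, Slc7 4 of 16, Slc16 3 of 14 and Slc43 1 of 3. Leaving out Slc6, the family with the lowest share, necessarily raised the share of the rest, to 16 of 53 (30.2%). Of the 268 other Slc genes 74 were marked (27.6%), and of the 47 mitochondrial carrier genes of the Slc25 family 22 were (46.8%). These shares are descriptions and were not tested.

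**Figure D1:**
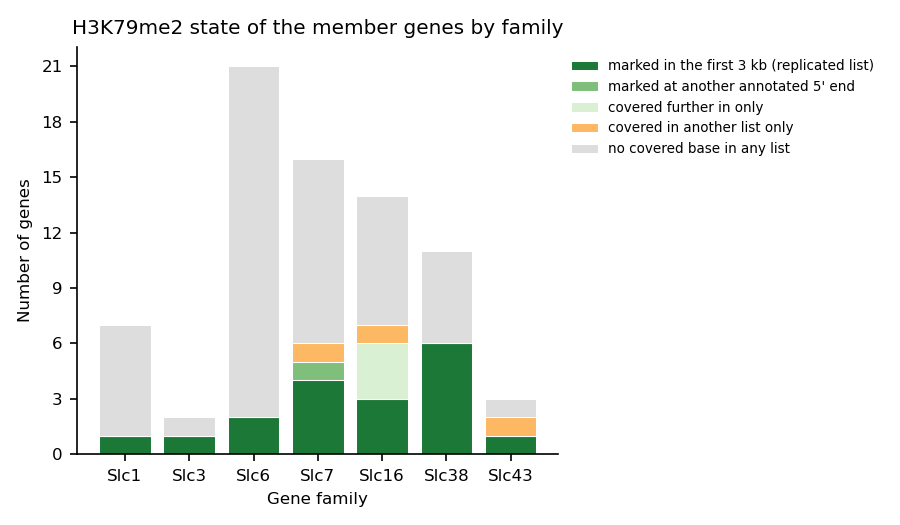
Number of genes (vertical axis) in each of the 7 families (horizontal axis), coloured by where H3K79me2 peaks lay. Slc38 has 6 of 11 genes marked in the first 3 kb, Slc6 has 2 of 21, and the 3 genes covered only further in are all in Slc16.

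Stretches of upstream sequence are given as examples of marked and unmarked 5′ ends. They are RefSeq promoter sequences on GRCm38.p6, cut to bases outside every annotated exon and printed on the gene's strand, with each CG dinucleotide in capitals. RefSeq entries were matched for 52 of the 74 genes. Slc7a8 and Slc16a10 were chosen by their covered bases, and the other 4 after their values were seen. The marked Slc7a8 (chr14:54781947-54782136, minus strand) has 9 CG in the 190 bases shown:
Slc7a8: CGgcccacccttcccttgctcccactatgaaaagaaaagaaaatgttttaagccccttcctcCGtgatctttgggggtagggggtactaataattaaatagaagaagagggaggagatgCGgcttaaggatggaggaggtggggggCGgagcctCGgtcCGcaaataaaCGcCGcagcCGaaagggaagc
The marked Slc16a10 (chr10:40142259-40142504, minus strand) has 21 in 246 bases:
Slc16a10: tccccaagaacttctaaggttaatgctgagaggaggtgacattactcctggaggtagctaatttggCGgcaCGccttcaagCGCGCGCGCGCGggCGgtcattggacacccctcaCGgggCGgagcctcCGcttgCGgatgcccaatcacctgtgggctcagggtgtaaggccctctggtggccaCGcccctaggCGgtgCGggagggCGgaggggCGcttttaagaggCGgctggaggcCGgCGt
Slc38a2 and Slc38a4 lie 295 kb apart on chromosome 15 and differ at their 5′ ends. The marked Slc38a2 (chr15:96699731-96699978, minus strand) has 30 CG in 248 bases, and the unmarked Slc38a4 (chr15:97055957-97056206, minus strand) has 3 in 250:
Slc38a2: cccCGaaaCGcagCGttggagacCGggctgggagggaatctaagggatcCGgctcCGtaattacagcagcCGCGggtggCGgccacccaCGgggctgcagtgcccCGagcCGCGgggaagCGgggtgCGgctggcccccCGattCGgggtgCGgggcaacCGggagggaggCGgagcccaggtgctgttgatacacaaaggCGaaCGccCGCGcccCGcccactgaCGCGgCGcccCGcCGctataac
Slc38a4: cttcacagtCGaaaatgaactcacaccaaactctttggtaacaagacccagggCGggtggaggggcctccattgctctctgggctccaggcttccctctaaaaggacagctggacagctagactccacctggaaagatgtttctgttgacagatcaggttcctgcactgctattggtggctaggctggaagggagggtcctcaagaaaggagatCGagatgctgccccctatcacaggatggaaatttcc
Slc16a1 (chr3:104638414-104638663, plus strand) has 37 CG in 250 bases and was unmarked in its first 3 kb all the same:
Slc16a1: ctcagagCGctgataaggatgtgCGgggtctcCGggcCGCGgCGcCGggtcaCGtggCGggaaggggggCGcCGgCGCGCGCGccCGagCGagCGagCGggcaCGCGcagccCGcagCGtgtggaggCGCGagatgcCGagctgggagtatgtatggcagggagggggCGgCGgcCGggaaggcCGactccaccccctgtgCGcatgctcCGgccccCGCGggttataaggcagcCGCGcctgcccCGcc
The cystine transporter gene Slc7a11 (chr3:50443615-50443863, minus strand) had no base under any list. In its 249 bases the capitals mark matches to TGATGNAA, the core of the amino acid response element, searched on both strands:
Slc7a11: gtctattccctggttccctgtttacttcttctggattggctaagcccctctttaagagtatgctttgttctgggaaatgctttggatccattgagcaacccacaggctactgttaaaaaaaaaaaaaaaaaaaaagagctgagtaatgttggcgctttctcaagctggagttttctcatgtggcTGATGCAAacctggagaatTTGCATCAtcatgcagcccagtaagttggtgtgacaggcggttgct

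These sequences are chosen examples, and the counts over all members are given next. A 5′ end is called CpG-rich here where the 500 bp on each side reached 0.6 in observed to expected CpG and 50% in GC content. Of the 32 members with such a 5′ end 15 were marked (46.9%), and of the 42 others 3 were (7.14%). The same shares over all coding genes were 54.1% and 11.4%. The 3 marked genes without a CpG-rich 5′ end were Slc16a3, Slc38a7 and Slc38a9, at observed to expected values of 0.42, 0.45 and 0.54. Of the CpG-rich members 14 had no base under any list: Slc1a1, Slc1a2, Slc1a4, Slc6a4, Slc6a7, Slc6a11, Slc6a16, Slc6a17, Slc6a20a, Slc6a21, Slc7a2, Slc16a9, Slc16a12 and Slc16a14. A CpG-rich 5′ end was thus found at 83.3% of marked members, near the 79.1% of all marked genes. Among unmarked members the share was 30.4%, beside 29.3% of all unmarked coding genes.

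**Figure D2:**
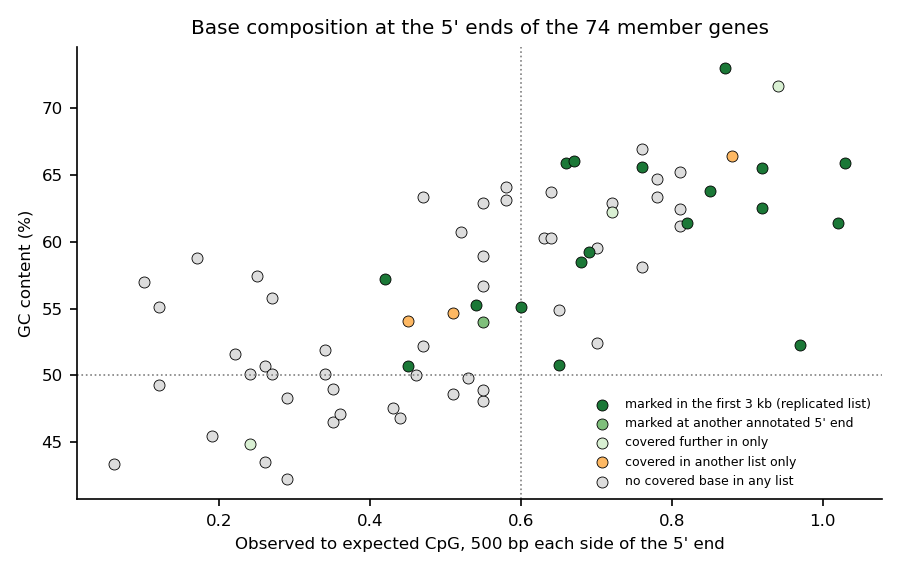
Observed to expected CpG (horizontal axis) and GC content in percent (vertical axis) of the 1 kb around the 5′ end, one point for each of the 74 genes. Dotted lines stand at 0.6 and 50%, and 15 of the 18 marked genes lie in the upper right part.

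TGATGNAA occurred in the 300-base RefSeq promoter (250 bases before to 50 after the start) of 4 of the 52 members with an entry, Slc1a4, Slc6a21, Slc7a7 and Slc7a11, beside 3.99% of 16522 genes. None of the 12 marked members with an entry held it. CACGTG, the E-box bound by Myc and Tfeb, occurred in 10 of the 52 and in 1 of the 12 marked, Slc38a7, beside 9.18% of genes. TGACNNNGC, the core of the antioxidant response element, occurred in 10 of the 52, of which 2 were marked, Slc7a1 and Slc38a2, beside 15.0% of genes. Both strands were searched for each. A match is a string of letters in this window and not a site that was shown to be used.

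The glutamate and neutral amino acid transporters of the Slc1 family showed 1 marked gene. Slc1a5, on chromosome 7 from 16781340 to 16798274, encodes the exchanger ASCT2, a main route of glutamine into proliferating cells. The covered bases of its first 3 kb were 1471 bp in replicate 1, 2060 bp in replicate 2 and 2029 bp under the replicated list. The peak was a single block of 2801 bp that began 971 bp inside the gene, with 230 bp in annotated exons and 2571 bp in introns. The fold over control, a value of the authors used here only within one list, was 5.45 in the replicated list, the 13.8th percentile among marked genes. Both replicates thus had the peak, shorter in replicate 1. Slc1a4, which encodes the related exchanger ASCT1, had no base under any list. The 5 genes for high-affinity glutamate uptake, Slc1a1, Slc1a2, Slc1a3, Slc1a6 and Slc1a7, also had none.

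Slc3a2 encodes the heavy chain CD98 and lies on chromosome 19 from 8706882 to 8723369 on the minus strand. Replicate 1 had no base in its first 3 kb, replicate 2 had 1951 bp and the replicated list 1945 bp. The main peak lay further in. It ran from 8708977 to 8713962, 9407 bp inside the gene, at a fold of 18.3, against 5.28 for the outer peak. Over the whole gene replicate 1 had 3651 bp, replicate 2 had 7301 bp and the replicated list 7094 bp (43.0%). An inner 5′ end at 8713879 was covered over all of its 3000 bp in replicate 2 and over 2164 bp in replicate 1. Of the replicates' own lists, replicate 2's alone held the outer peak, and both held the inner one. Slc3a1, which encodes rBAT, the heavy chain of kidney and intestine, had no base under any list.

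Among the 10 light chain genes of Slc7, 2 were marked at the outermost 5′ end. Slc7a8, the gene of the neutral amino acid light chain LAT2, is on chromosome 14 from 54722209 to 54781946. In the first 3 kb it had 2354 bp in replicate 1, 2682 bp in replicate 2 and 2807 bp under the replicated list. Over the gene there were 17421 bp, 33484 bp and 27961 bp (46.8%) in the same order, with 27030 bp of the replicated bases in introns. The fold at its 5′ end was 18.3. Slc7a8 was thus high in both replicates, with longer cover in replicate 2.

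Slc7a5, the gene of the light chain LAT1 that imports leucine and other large neutral amino acids, is on chromosome 8 from 121881150 to 121907694. It had 1571 bp in the first 3 kb in replicate 1, 1897 bp in replicate 2 and 1880 bp under the replicated list. The block of 5227 bp began 1120 bp into the gene, the latest start among the 18 marked genes, and was all intronic. The replicates agreed in the first 3 kb more than over the gene, where replicate 1 had 2604 bp and replicate 2 had 7420 bp. Slc7a5 lies inside the annotated gene Gm20388, a span of 4434882 bp on the other strand.

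Slc7a7, the gene of y+LAT1, which exports arginine in exchange for neutral amino acids, is on chromosome 14 from 54369442 to 54417780. None of the 4 lists had a base in its first 3 kb. Further in, the replicated list covered 26364 bp (54.5%) in 4 blocks from 8444 bp to 39105 bp inside the gene, at folds up to 10.2. Replicate 2 had 31016 bp and replicate 1 had 2042 bp, the widest gap in covered bases between the replicates of any light chain gene. An inner 5′ end 8320 bp into the gene had 1217 bp in replicate 1, 2878 bp in replicate 2 and 2876 bp in the replicated list. The 232 bp that the gene shares with Oxa1l held no covered base.

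Slc7a6 encodes y+LAT2 and lies on chromosome 8 from 106168857 to 106198706. It had no base in replicate 1 or in the replicated list, and 2475 bp of the first 3 kb and 6981 bp of the gene in replicate 2. Its neighbour Slc7a6os, the counterpart of a yeast factor in the nuclear import of RNA polymerase II, starts 1 bp from the divergent gene Prmt7. Slc7a6os had 2017 bp of its first 3 kb in replicate 1, 2647 bp in replicate 2 and 2541 bp under the replicated list. Prmt7 had 0 bp in replicate 1 and in the replicated list and 1631 bp in replicate 2. In the replicated list the peak was thus on the Slc7a6os side of this shared 5′ end.

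Slc7a11, the light chain of the cystine and glutamate exchanger, had no base under any list in an annotated span of 551089 bp. The other light chain genes without a base were Slc7a9, Slc7a10, Slc7a12, Slc7a13 and Slc7a15. Of the 5 genes of the cationic group, Slc7a1 was marked. It encodes CAT1, a widely expressed importer of arginine and lysine, and lies on chromosome 5 from 148327410 to 148399904. It had 1495 bp of the first 3 kb in replicate 1, 2385 bp in replicate 2 and 2371 bp under the replicated list. Over the gene replicate 1 had 7361 bp, replicate 2 had 23765 bp and the replicated list 20551 bp, spread over 8 blocks at a fold of at most 5.53. Replicate 1 was the lower replicate on both measures. Slc7a2, the gene of the CAT2 transporter that supplies arginine in activated macrophages, had no base, nor did Slc7a3, Slc7a4 and Slc7a14.

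Of the Slc6 family the taurine transporter gene Slc6a6 and the creatine transporter gene Slc6a8 were marked. Slc6a6 is on chromosome 6 from 91684053 to 91759066. Its first 3 kb had 2641 bp in replicate 1, 2759 bp in replicate 2 and 2725 bp under the replicated list. Peaks covered 37905 bp of the gene in replicate 1, 63105 bp in replicate 2 and 53309 bp (71.1%) in the replicated list. The fold of 32.7 was the highest of the 18 marked members and stood at the 99.1st percentile of all marked genes. Its first block alone was 27517 bp long, and 51250 bp of the covered bases were intronic.

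Slc6a8, on the X chromosome from 73673150 to 73682502, was at the other end of the range. It had 1091 bp in replicate 1, 1963 bp in replicate 2 and 1213 bp under the replicated list, the lowest of the marked members. The highest value among the 56 unmarked members was 0 bp, so no member lay near the limit of 200 bp. The other 9 genes of the neurotransmitter, creatine, taurine and betaine group had no base under any list, among them Slc6a2, Slc6a3, Slc6a4, Slc6a5, Slc6a9, Slc6a11, Slc6a12 and Slc6a13. The 10 amino acid and orphan transporter genes also had none: Slc6a7, Slc6a14, Slc6a15, Slc6a16, Slc6a17, Slc6a18, Slc6a19, Slc6a20a, Slc6a20b and Slc6a21.

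Of the 4 genes of the proton-linked monocarboxylate transporters, Slc16a3 was marked. It encodes MCT4, the lactate exporter of glycolytic cells, and lies on chromosome 11 from 120948480 to 120960868. Its first 3 kb had 1891 bp in replicate 1, 2259 bp in replicate 2 and 2229 bp under the replicated list. The gene had 6526 bp in replicate 1, 7584 bp in replicate 2 and 7360 bp (59.4%) in the replicated list, where the peak was a single block at a fold of 10.9. Replicate 1 reached 86.0% of replicate 2's covered bases, above the median of 45.0% over the marked members.

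Slc16a1, the gene of MCT1 on chromosome 3 from 104638668 to 104658462, had 0 bp of its first 3 kb in replicate 1 and in the replicated list and 877 bp in replicate 2. Its 2 replicated blocks, 2490 bp in all, began 5599 bp into the gene, lay in introns and had folds of 2.92 and 3.60. Replicate 1 had 708 bp and replicate 2 had 4391 bp of the gene. Slc16a7, the gene of MCT2 on chromosome 10, had 1377 bp (0.809% of 170196 bp) in a single intronic block 16892 bp from its 5′ end, at a fold of 3.70. Replicate 1 had none of it. Slc16a8, the gene of MCT3, had no base under any list. In the replicated list the bases of these genes thus lay far from the 5′ end or were absent.

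Of the 10 other Slc16 genes, Slc16a10 and Slc16a6 were marked. Slc16a10 encodes the aromatic amino acid transporter TAT1 and lies on chromosome 10 from 40033532 to 40142258. It had more covered bases than any other of the 74 genes. There were 52013 bp in replicate 1, 64717 bp in replicate 2 and 59699 bp (54.9%) in the replicated list, with the longest block of 29468 bp. Its first 3 kb had 2395 bp, 2658 bp and 2625 bp in the same order, at a fold of 19.8. The replicates were closer to each other here than in most members, with replicate 2 the higher.

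Slc16a6, which encodes a carrier of ketone bodies, is on chromosome 11 from 109450855 to 109473598. Peaks lay over 1496 bp of the first 3 kb in replicate 1, 2089 bp in replicate 2 and 2067 bp under the replicated list. Over the gene replicate 1 had 4859 bp, replicate 2 had 17143 bp and the replicated list 11280 bp (49.6%). The stretches it shares with Amz2 (1959 bp) and Arsg (225 bp) held no covered base.

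At Slc16a4 the peak was shared with a neighbour. A block of 25999 bp at a fold of 28.6 ran on chromosome 3 from 107307010 to 107333008, from the 3′ part of Slc16a4 across the convergent gene Rbm15. It covered 5106 bp (24.4%) of Slc16a4 beginning 15780 bp from its 5′ end, and replicate 1 had 3140 bp and replicate 2 had 4964 bp there. None of the lists had a base in the first 3 kb of Slc16a4, while 2335 bp of the first 3 kb of Rbm15 were under the replicated list. Slc16a13 had no base in the gene under the replicated list but 723 bp in the 1 kb upstream, and 1313 bp of the gene in replicate 2. Among the rest, Slc16a5, Slc16a9, Slc16a11, Slc16a12 and Slc16a14 had no base under any list.

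The Slc38 family had 6 marked genes. Slc38a1 and Slc38a2, which encode the sodium-coupled glutamine and alanine transporters SNAT1 and SNAT2, are neighbours on chromosome 15, 44.5 kb apart. Slc38a1, from 96571418 to 96642913, had 2228 bp of its first 3 kb in replicate 1, 2468 bp in replicate 2 and 2451 bp under the replicated list. Its gene had 18943 bp, 38880 bp and 32998 bp (46.2%) in the same order. Slc38a2 lies from 96687392 to 96699730 and is known to rise when amino acids are scarce. It had 1988 bp of the first 3 kb in replicate 1, 1977 bp in replicate 2 and 1993 bp in the replicated list. Over the gene the values were 5536 bp, 6057 bp and 6043 bp (49.0%). Slc38a2 was the member with the closest values in the replicates, and 5035 bp of its covered bases lay in annotated exons. The third gene of this cluster, Slc38a4, had no base under any list.

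Slc38a7 and Slc38a9 encode proteins of the lysosome. Slc38a7 exports glutamine from it, and Slc38a9 senses lysosomal arginine for the kinase complex mTORC1. Slc38a7, on chromosome 8 from 95835920 to 95853539, had 1194 bp of the first 3 kb in replicate 1, 2086 bp in replicate 2 and 2427 bp under the replicated list, at a fold of 10.2. Slc38a9, on chromosome 13 from 112660751 to 112738749, had 0 bp in replicate 1 and 2982 bp in replicate 2. The replicated list had 2977 bp in a single block of 4668 bp that began 23 bp from the 5′ end, at a fold of 6.12. Slc38a9 therefore had the highest replicated value of the 18 marked members in the first 3 kb and no base in replicate 1 anywhere in the gene.

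Slc38a6 and Slc38a10 are less studied members of the family. Slc38a6, on chromosome 12 from 73286779 to 73354049, had 1924 bp of the first 3 kb in replicate 1, 2829 bp in replicate 2 and 2731 bp under the replicated list. It starts 69 bp from the divergent gene Trmt5, which had 0 bp in replicate 1, 2894 bp in replicate 2 and 2848 bp in the replicated list. Over the Slc38a6 gene replicate 1 had 6293 bp, replicate 2 had 20947 bp and the replicated list 18340 bp (27.3%). Slc38a10, on chromosome 11 from 120103960 to 120151346, had 2517 bp of the first 3 kb in replicate 1, 2150 bp in replicate 2 and 2686 bp in the replicated list, at a fold of 24.6. Over the gene it had 13072 bp, 19318 bp and 16073 bp (33.9%). It was 1 of 2 marked members, with Slc38a2, in which replicate 1 had more of the first 3 kb than replicate 2. Slc38a3, Slc38a5, Slc38a8 and Slc38a11 had no base under any list.

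In the Slc43 family, Slc43a2 was marked. It encodes LAT4, a transporter of branched-chain amino acids, methionine and phenylalanine that needs no heavy chain, and lies on chromosome 11 from 75531694 to 75577575. Its first 3 kb had 1747 bp in replicate 1, 3000 bp in replicate 2 and 2886 bp under the replicated list, at a fold of 27.7. The gene had 15805 bp in replicate 1, 38372 bp in replicate 2 and 30113 bp (65.6%) in the replicated list. The replicated peaks crossed the 5′ end and covered 849 bp of the 1 kb upstream, while replicate 1's first peak began 481 bp inside the gene. Slc43a3, a purine nucleobase transporter gene, had 782 bp of its first 3 kb in replicate 2 and none in replicate 1 or the replicated list. Slc43a1, the gene of LAT3, had no base under any list.

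**Figure D3:**
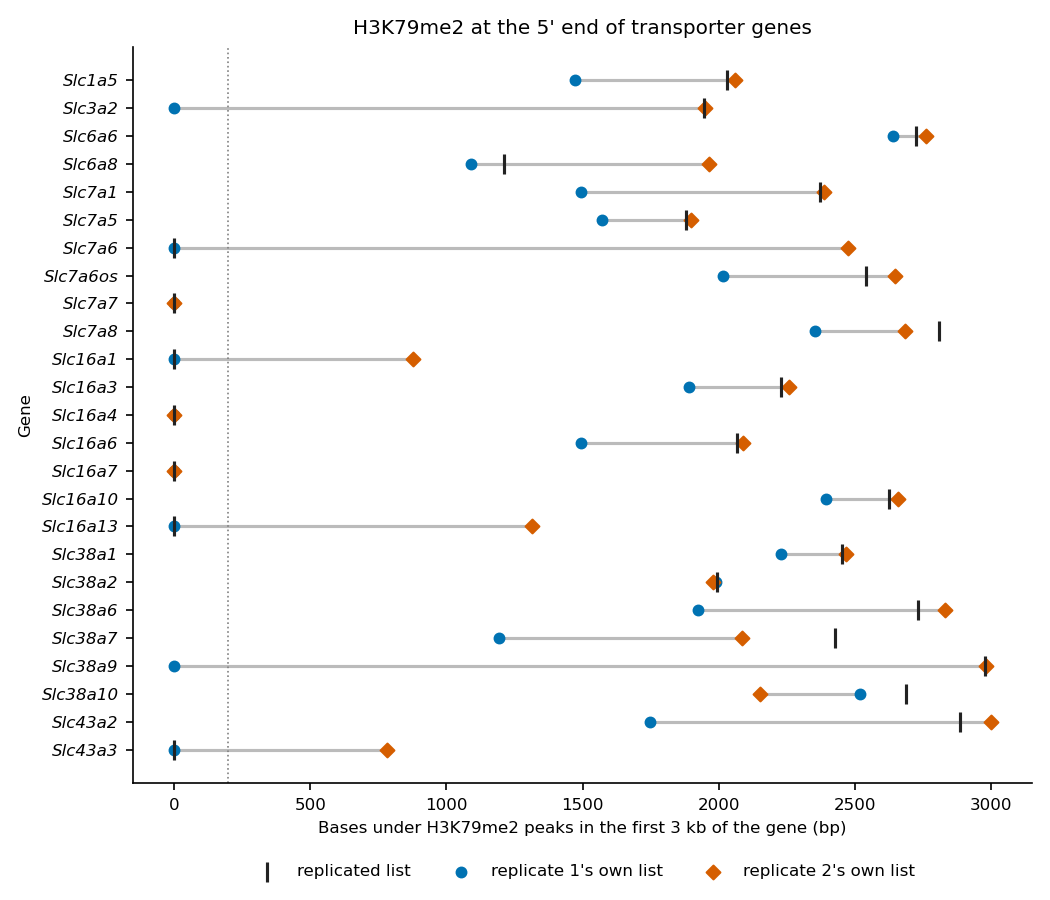
Bases of the first 3 kb under H3K79me2 peaks (horizontal axis, bp) for the 25 genes with a base under any list (vertical axis). Circles are replicate 1, diamonds replicate 2, bars the replicated list and the dotted line the limit of 200 bp; Slc3a2, Slc7a6, Slc16a1, Slc16a13, Slc38a9 and Slc43a3 have 0 bp in replicate 1 and more in replicate 2.

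Set side by side, replicate 1's own list marked 16 of the 74 genes and replicate 2's marked 22, beside 27.2% and 35.6% of all coding genes. The pooled list marked 21 (34.3% of all coding genes). Both replicates' own lists marked 16 members, beside 27.2% of coding genes. Each of the 16 members marked in replicate 1 was thus marked in replicate 2. Slc7a6, Slc16a13, Slc38a9 and Slc43a3 were marked in replicate 2 with no base of the gene in replicate 1, and 7.26% of all coding genes were so. These 4 are 18.2% of the members marked in replicate 2, and for all coding genes the share was 20.4%. All 18 marked members had more covered gene bases in replicate 2 than in replicate 1, as did 98.2% of all marked genes. Replicate 1's bases were a median 45.0% of replicate 2's over the marked members and 58.4% over all marked genes. For the 18 marked members the replicated value of the first 3 kb was the same as the pooled one, as it was for 93.7% of all marked genes. In 4 of the 18, Slc7a8, Slc38a2, Slc38a7 and Slc38a10, it was above the values of both replicates, beside 13.1% of all marked genes.

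**Figure D4:**
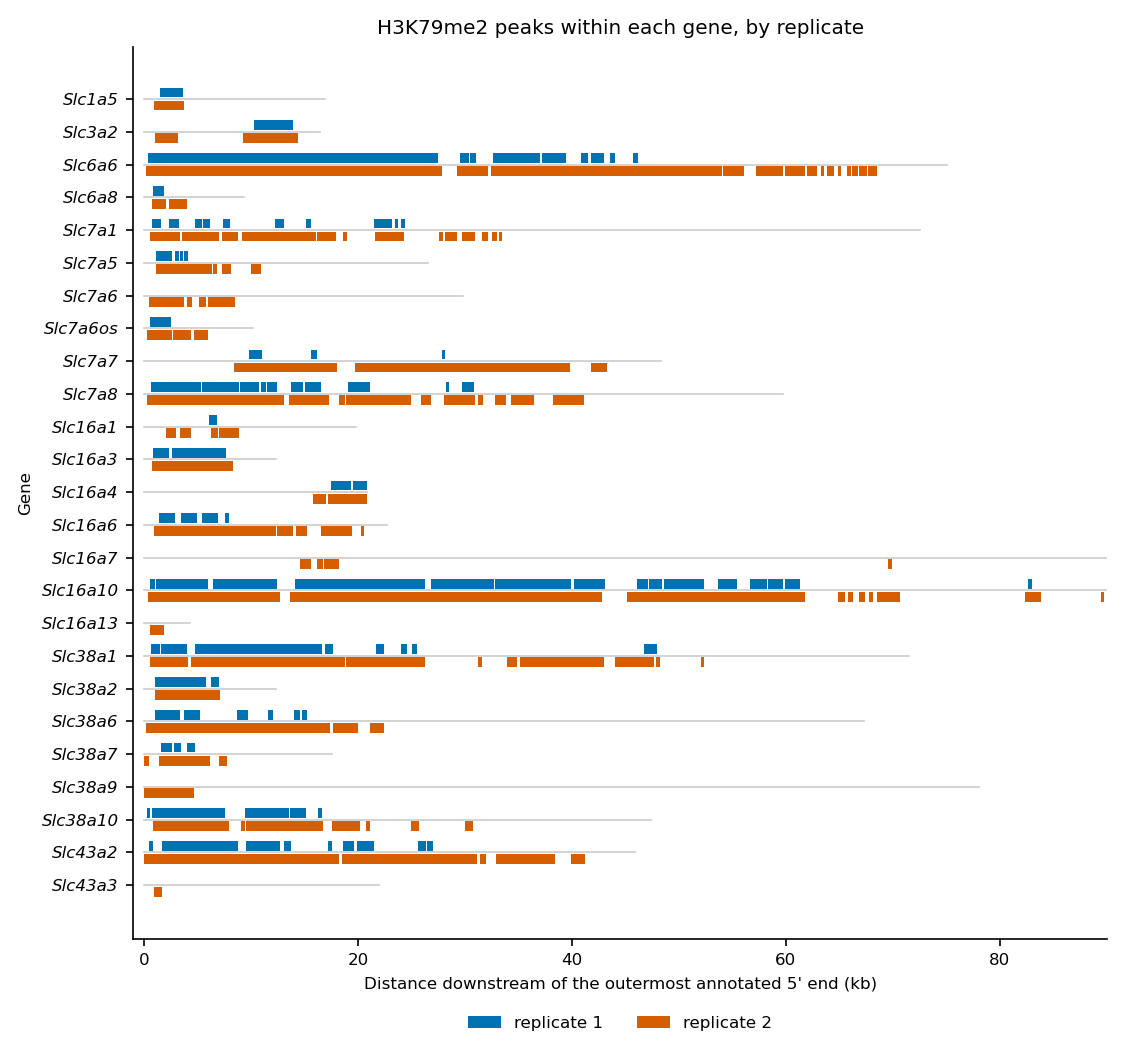
Position of H3K79me2 peaks inside each of the 25 genes with a base under any list (vertical axis), as distance from the outermost annotated 5′ end in kb (horizontal axis, drawn to 90 kb). The upper bar of each gene is replicate 1, the lower bar replicate 2 and the grey line the gene. In Slc3a2, Slc7a7, Slc16a1 and Slc16a4 the peaks of replicate 1 lie away from the 5′ end.

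Marked members had about as many covered bases in the first 3 kb as other marked genes, placed somewhat further in. At 500 to 1000 bp the members had 62.0% cover beside 77.4% for all marked genes. At 2500 to 3000 bp they had 93.7% beside 81.7%. The first covered base lay a median 471 bp into the 18 marked members and 377 bp into all marked genes. The median covered part of the first 3 kb was 2439 bp for the members and 2456 bp for all marked genes. Beyond 3 kb the members had more cover in most bins of 500 bp, such as 62.3% beside 43.2% at 10500 to 11000 bp. They had less in a few, such as 42.0% beside 47.9% at 8500 to 9000 bp. Over the whole gene the medians were 9320 bp and 6118 bp, and as a share of the gene 41.0% and 33.9%. In replicate 1's list alone the median share of the members marked there was 23.9%. The matching median over all coding genes was not computed, so this value has no background beside it. The marked members were also longer, with a median gene length of 36.2 kb beside 24.4 kb. The longest block was at least 10 kb in 7 of 18 marked members (38.9%) and in 26.7% of all marked genes. The median fold was 10.7 for members and 11.9 for all. Annotated exons made up 7.83% of the covered bases of the marked members and 8.28% of those of all marked genes. A base upstream within 1 kb was covered in 3 of 18 members, Slc3a2, Slc38a6 and Slc43a2, and in 19.6% of all marked genes.

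**Figure D5:**
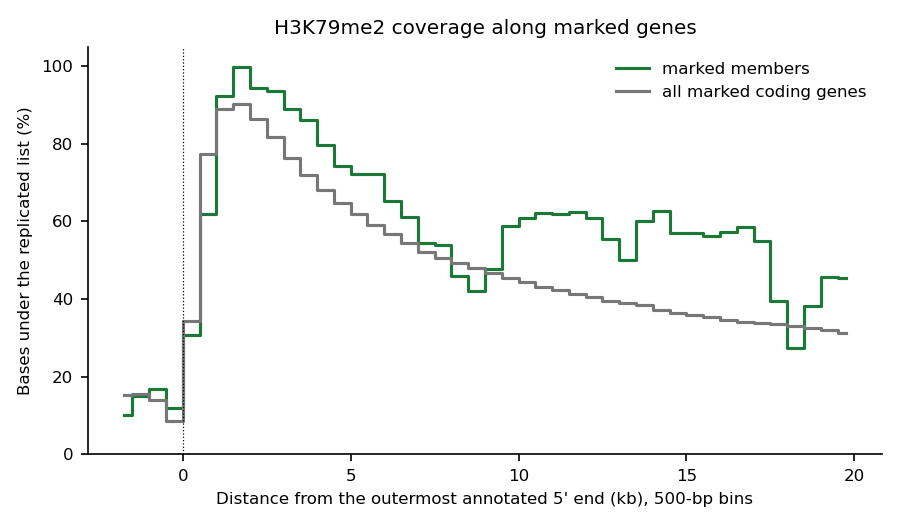
Share of bases under the replicated list (vertical axis, percent) in bins of 500 bp by distance from the outermost annotated 5′ end (horizontal axis, kb), for the 18 marked members and all 6658 marked coding genes, over the genes that reach each bin. Members go from 30.7% in the first bin to 99.9% at 1500 to 2000 bp and 72.2% at 5000 to 5500 bp. All marked genes have 34.2%, 90.2% and 61.9% in the same bins. The first 3 kb served to call genes marked.

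Genes that work with these transporters were taken from 4 lists. Among 6 partner proteins 3 were marked, beside 30.3% of all coding genes. Bsg encodes basigin, the chaperone that carries MCT1 and MCT4 to the membrane, and had 3996 bp of the gene in replicate 1, 5397 bp in replicate 2 and 5212 bp (69.7%) in the replicated list. Arl6ip5, a regulator of glutamate transport, had 18290 bp under the replicated list, and Arl6ip1 had 8223 bp. Emb, which encodes embigin, the partner of MCT2, was covered at another annotated 5′ end and had 18450 bp over the whole gene. Cltrn, which escorts Slc6 transporters in the kidney, had no base under the replicated list.

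Of 44 genes for amino acid sensing and the starvation response 30 were marked (68.2%, beside 30.3% of all coding genes). Of the 38 among them with a CpG-rich 5′ end 26 were marked, beside 54.1% of all coding genes with such a 5′ end. The most covered bases were in Fnip2 (98529 bp), Rptor (96589 bp) and Fnip1 (63128 bp), which act with the mTORC1 complex on lysosomes. No base under the replicated list was found in Mlst8, Tsc2, Rragb, Rragd, Nprl2, Depdc5, Mios, Sesn3, Castor1, Castor2, Chac1 and Trib3. Of these, Mlst8, Rragd, Nprl2, Depdc5, Mios and Castor2 had 569 to 1627 bp of the first 3 kb in replicate 2's own list. The gene of the starvation factor Atf4 was marked, with 1529 bp (64.8%) of its length covered. Of 12 genes in a list of other lysosomal exporters and related carriers 8 were marked (66.7%, beside the same 30.3%). Slc29a3 had 23293 bp, Slc36a1 had 13039 bp and Slc36a4 had 11394 bp, while Slc36a2 and Slc36a3 had none. Slc15a3 had 196 bp in its first 3 kb, just under the limit, and was covered at another annotated 5′ end, as was Slc15a4.

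Of 37 genes for enzymes of amino acid and lactate metabolism 15 were marked (40.5%, beside 30.3% of all coding genes). Sms, for spermine synthesis, had 19554 bp and the aspartate aminotransferase gene Got1 had 15625 bp. Asl, Gpx4, Ldha and Psat1 were marked at another annotated 5′ end only. For Ldha, the lactate dehydrogenase of glycolysis, the gene had 3911 bp in replicate 1, 4555 bp in replicate 2 and 4552 bp in the replicated list. No base was found under the replicated list in Gls2, Gpt, Gpt2, Ass1, Arg1, Arg2, Nos2, Bcat1, Bckdhb, Gss, Ldhb, Phgdh, Psph, Shmt2, Ido1, Tdo2 and Kyat1. In replicate 2's own list Gpt had 900 bp of the gene and Psph had 45 bp. Nos2 and Arg1, which use arginine in activated macrophages, were thus without a peak, as was the arginine carrier gene Slc7a2, while Slc7a1 was marked in both replicates.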

How the data were processed

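H3K79me2 ChIP-seq of 2 replicates was used as 4 deposited peak lists on mm10: each replicate alone, both pooled, and a replicated list. The aligner and the peak caller with its thresholds were not given in the sources used here, nor was the derivation of the replicated list. Each peak's fold (ratio over control) and −log10 q were computed by the authors, and the fold was used to describe and filter peaks within a list. The −log10 q, a deposited q-value, served only to count peaks with q over 0.05, of which none lay in a member. Peaks were merged per list and intersected with 21938 protein-coding genes of GENCODE M21 (GRCm38), in Python 3.11.15 with numpy 2.4.6, pysam 0.24.0 and matplotlib 3.10.9. Covered bases were checked on simulated data with 200 planted windows, of which 0 came out wrong.

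Named genes are every member with a base under any list with values, the others by family, and of each companion list up to 3 marked genes with the most covered bases and all without a base; further genes were named after their values were seen. A few genes taken by this rule are not reported here. The members and lists were chosen with earlier results of these data known. With 1 group no test was made: counts stand beside the share of all coding genes. Alternatives were each replicate's list, the pooled list, minimums of 1 and 1000 bp, any annotated 5′ end, the whole gene, peaks at or above the median fold, and genes overlapping no other. Depth is unknown, so no interval is given.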

Additional observations from a re-analysis of the deposited data

How the results depend on the processing

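The count of 18 marked members lay between 16 and 22 when only the list of 1 replicate was used, stayed at 18 with a minimum of 1 bp or 1000 bp, and fell to 11 once peaks under the median fold were dropped, where 22.3% of all coding genes were marked. With those stronger peaks Slc1 and Slc3 had 0 marked genes, Slc6 and Slc7 had 1 each, and the enzyme list had 7. Slc3 ranged from 0 to 1 over the single-replicate lists (0 without replicate 2), Slc16 from 3 to 5 (5 without replicate 1) and Slc43 from 1 to 2 (2 without replicate 1). The pooled list gave Slc43 2 marked genes, and counting the whole gene gave Slc16 6. The median covered share of the marked genes was 41.0% and lower in each other list: 23.9% without replicate 2, 37.3% without replicate 1 and 37.4% in the pooled list. It was taken over the genes marked in each list. The causes were not tested. No paired analysis was possible because the data form 1 group. Depth is unknown, so a gene without a peak in replicate 1 cannot be told apart from one below detection there.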
